A study of Mus musculus with 2 samples.

Results

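Interleukins act on lymphocytes and on the epithelium that they patrol, and 8 genes of this system were followed here in single cells of the mouse colon crypt: the receptor genes Il2rg, Il2rb, Il7r, Il15ra, Il18r1, Il10rb and Il17ra, and the cytokine gene Il18. They are 8 of the 19294 rows of the count matrix, were chosen by symbol, and all 8 had a row. Cells came from untreated colons of C57BL/6 Tcf4 GfpCre/+ RosamTmG/+ mice of 4 to 10 months of age. All cells therefore carry 1 knock-in allele of Tcf4, a Wnt pathway transcription factor gene, in which Cre is driven by the Tcf4 locus. The study describes this allele as a knock-out too, so that all the mice are heterozygous for Tcf4. The cells also carry a reporter that turns from membrane Tomato (mTOM) to membrane GFP (mGFP) after Cre has acted. The sort kept mTOM+ cells without Tcf4 lineage history (Tcf4 Lin-) and cells with both colours (MIX), so the clusters are not a census of the crypt. The labels give 2 pools (samples 1 to 3 pooled, and samples 4 to 6 pooled), both under 1 condition that holds either sort, and Drop-seq was used to count unique molecular identifiers (UMIs, 1 per captured transcript) per gene and cell.

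The common gamma chain, encoded by Il2rg, is shared by the receptors for IL-2, IL-4, IL-7, IL-9, IL-15 and IL-21. Il2rb encodes the beta chain of the IL-2 and IL-15 receptors, Il7r the alpha chain of the IL-7 receptor, and Il15ra the chain that presents IL-15 to neighbouring cells. IL-18 is made as an inactive precursor, which caspase-1 cleaves after an inflammasome has formed, and acts through a receptor of Il18r1 and Il18rap. Il10rb is the shared second chain of the receptors for IL-10, IL-22 and the lambda interferons, and Il17ra is the shared chain of the IL-17 receptors. In the gut, IL-15 and IL-7 are known for sustaining intraepithelial lymphocytes (IELs), and IL-18 is known as a product of the epithelium itself.

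Among the 8 genes, Il2rg, Il2rb and Il7r were transcripts of the lymphocyte clusters, Il18 was highest in absorptive precursors of the epithelium, and Il10rb was found in every cluster. Il15ra, Il18r1 and Il17ra had too few UMIs to rank the clusters. To show DNA near the start of genes on either side of this division, the 250 bases before the RefSeq start are printed for Il2rg, Il7r and Il18, 5′ to 3′ on the strand of the gene (RefSeq, GRCm38.p6), with 1 kind of match in capitals. Of the 8 genes, 5 had a promoter entry. Il2rg is on X:101268256-101268505, minus strand, Il7r on 15:9529877-9530126, minus strand, and Il18 on 9:50554450-50554699, plus strand. For Il7r and Il18 the RefSeq and GENCODE starts differ. The Il7r stretch lies inside the span that GENCODE gives the gene, and the Il18 stretch ends upstream of its GENCODE start at 50554827.

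Il2rg: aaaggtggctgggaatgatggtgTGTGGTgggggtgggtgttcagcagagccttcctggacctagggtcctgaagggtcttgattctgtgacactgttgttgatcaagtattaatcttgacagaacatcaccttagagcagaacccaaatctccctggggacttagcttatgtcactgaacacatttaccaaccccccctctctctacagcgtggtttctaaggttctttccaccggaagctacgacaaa

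Il7r: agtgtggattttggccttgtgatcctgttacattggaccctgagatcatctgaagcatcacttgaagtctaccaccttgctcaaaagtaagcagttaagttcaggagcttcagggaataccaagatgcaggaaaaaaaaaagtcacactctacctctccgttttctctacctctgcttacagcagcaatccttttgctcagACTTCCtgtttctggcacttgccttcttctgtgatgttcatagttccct

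Il18: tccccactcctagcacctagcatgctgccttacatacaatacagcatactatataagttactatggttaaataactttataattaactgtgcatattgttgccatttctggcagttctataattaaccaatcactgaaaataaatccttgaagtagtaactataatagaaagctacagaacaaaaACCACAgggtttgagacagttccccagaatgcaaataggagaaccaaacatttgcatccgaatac

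Capitals mark the motif searched, on either strand: TGTGGT or ACCACA for RUNX, GGAAGT or ACTTCC for ETS, AGATAA or TTATCT for GATA, and TGACTCA or TGAGTCA for AP-1. These words do not overlap one another in the 3 stretches shown. Il2rg held 1 RUNX word 227 bases before the RefSeq start, Il7r held 1 ETS word 49 bases before it, and Il18 held 1 RUNX word 65 bases before it. Of all 32851 promoter stretches of this length, 14.0% held the RUNX word, 19.7% the ETS word, 9.99% the GATA word and 4.46% the AP-1 word, so matches of this kind are common and describe letters only.

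The study's list of all cells assigned 516 of the 1117 barcodes to natural IELs (nIELs, 190 cells), induced IELs (iIELs, 186), epithelial Pigr+ cells (93) and B cells (47). A further list divided epithelial cells into stem cells (32), secretory precursors (32) and absorptive precursors (42). Median depths ran from 965.5 UMIs in iIELs and 995.5 in stem cells to 1939.5 in absorptive precursors. The clusters were built by the study from the same counts, so a difference between clusters is a description. Barcodes end in X1 or X2, shared no barcode, and could not be tied to the pools, so all cells stand as 1 sample without replicates. All intervals are exact 95% intervals (Poisson for levels, Clopper-Pearson for shares) and cover counting error only. For a share of 0, the upper limit in the text is that of 3 cells in the total and is not exact. It lies under the exact limit, which for 0 of 93 is 3.89% where 3.23% is given.

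The 2 lists disagree on 14 cells, which are IELs in the first (11 iIELs and 3 nIELs) and epithelial in the second. All 14 held a UMI of Pigr, the epithelial immunoglobulin receptor. Every cell of the second list did, so Pigr alone does not tell which list is right. Their UMIs of the epithelial markers Epcam, Krt8, Krt19 and Pigr together ran from 1 to 579 per cell. Of the 14 cells, 1 held a UMI of Cd3d, Cd3e or Cd3g, the T-cell receptor signalling chains. The 14 included 4 very deep cells of 19945 to 23205 UMIs, all iIELs by the first list. Those 4 alone held 30.7% of the UMIs of that cluster. As listed, the iIELs held 225 UMIs of Epcam, 154 of Krt8 and 156 of Krt19. Without the 11 iIELs that both lists claim, they held 7, 2 and 3. The T cell and IEL markers together had 7094 UMIs in iIELs as listed and 7064 without those 11 cells. Most UMIs of these epithelial markers in iIELs thus lay in cells of both lists, unlike those of the lymphocyte markers. The identity of each of the 14 cells was not tested. Values are therefore also given for the 362 IELs of 1 list only, which leave those 14 cells out. The cluster names otherwise went with their markers: Cd3e had a UMI in 61.6% of nIELs and 57.5% of iIELs and in none of the epithelial cells, and Pigr had one in 98.9% of epithelial cells. The B cell cluster was mixed, with 650 UMIs of the T cell and IEL markers (11 of 11 markers) and a Cd3 UMI in 11 of its 47 cells. Of the 650 UMIs, 65 were of Ptprc, a marker of lymphocytes at large, in 30 cells. The cluster also held 67 UMIs of the myeloid markers (3 of 6), of which 63 were of Lyz2 in 3 cells.

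**Figure D1:**
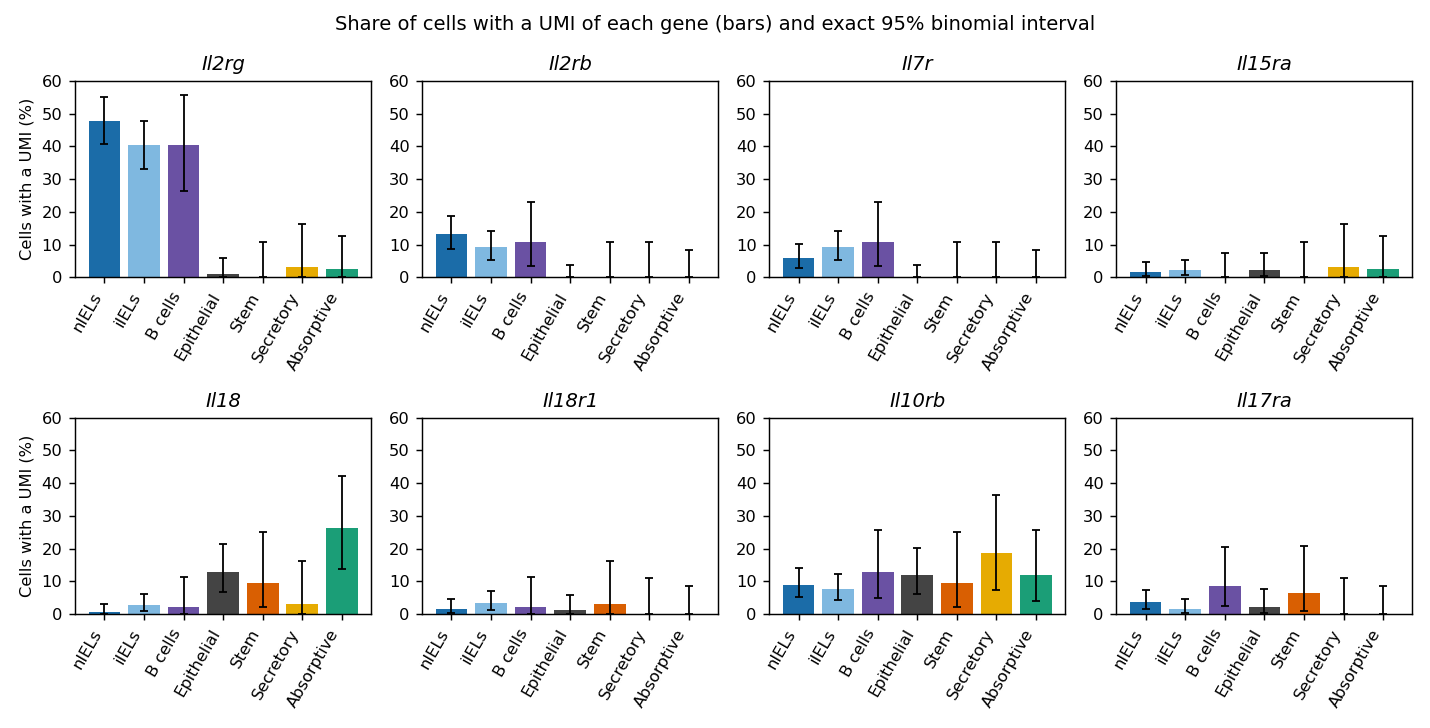
Percent of cells with at least 1 UMI (y axis) of each of the 8 genes in the 4 clusters and the 3 epithelial subclusters, which overlap with the epithelial and IEL clusters (x axis). Error bars are exact 95% binomial intervals. Il2rg reached 47.9% of nIELs and 1.08% of epithelial cells, whereas Il18 reached 26.2% of absorptive precursors and 0.526% of nIELs.

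Il2rg was the most often detected of the 8 genes. In nIELs it had 156 UMIs in 91 of 190 cells (47.9%, interval 40.6% to 55.2%), and in iIELs it had 100 UMIs in 75 of 186 cells (40.3%, 33.2% to 47.7%). In the B cell cluster it had 27 UMIs in 19 of 47 cells (40.4%, 26.4% to 55.7%). In epithelial Pigr+ cells it had 1 UMI in 93 cells (1.08%, 0.0272% to 5.85%), although their median depth of 1645 UMIs was above the 1145.5 UMIs of nIELs. The intervals of the 3 lymphocyte clusters lie above that of the epithelial share. The part of free RNA in these values was not tested.

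As a level, Il2rg stood at 643 UMIs per 1000000 (CPM, 546 to 752) in nIELs, 352 CPM (286 to 428) in iIELs, 352 CPM (232 to 512) in B cells and 4.03 CPM (0.102 to 22.4) in epithelial cells. Over both IEL clusters it was 121-fold higher than in epithelial cells (21.5 to 4783), an interval that is wide because the epithelium held 1 UMI. With the IELs of 1 list only, it was 149-fold higher (26.5 to 5905). By barcode set, IELs stood at 493 CPM in X1 and 432 CPM in X2, and at 581 and 836 CPM with the IELs of 1 list. Stem cells had no UMI, and secretory and absorptive precursors had 1 each, of which that of the absorptive precursors was in a cell that the other list calls an iIEL.

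The nIELs held more Il2rg than the iIELs, 1.83-fold (1.41 to 2.37), when clusters were taken as listed. Without the 14 cells the level of iIELs was 535 CPM (435 to 651) and the ratio was 1.22 (0.939 to 1.58), which includes 1. The 14 cells held 1 Il2rg UMI in all, in a cell of 1536 UMIs.

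Il2rb, the chain for IL-2 and IL-15, had 28 UMIs in 25 nIELs (13.2%, 8.70% to 18.8%), 18 UMIs in 17 iIELs (9.14%, 5.41% to 14.2%) and 6 UMIs in 5 B cells (10.6%, 3.55% to 23.1%). No epithelial cell held one, and 0 of 93 cells allows a share of up to 3.23%. IELs were at least 7.23-fold higher than epithelial cells, against a floor of 3 counts over the group, and at least 8.95-fold higher with the IELs of 1 list. Between nIELs and iIELs the ratio was 1.82 (0.972 to 3.49), or 1.20 (0.641 to 2.30) without the 14 cells, so no order of the 2 clusters could be read. In the B cell cluster, 3 of the 5 cells with Il2rb also held a Cd3 UMI. The part of those cells in the B cell value was not tested.

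IELs with Il2rb were no richer in Il2rg UMIs than others at this depth. Of the 42 IELs of 1 list with an Il2rb UMI, 20 also held Il2rg (47.6%, 32.0% to 63.6%), against 145 of the 320 cells without Il2rb (45.3%, 39.8% to 50.9%). Their median depths were 1186 and 1023.5 UMIs.

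Il7r, the receptor chain for IL-7, had 18 UMIs in 11 nIELs (5.79%, 2.93% to 10.1%), 32 UMIs in 17 iIELs (9.14%, 5.41% to 14.2%) and 9 UMIs in 5 B cells (10.6%). Epithelial Pigr+ cells and the 3 subclusters held none. IELs were at least 7.85-fold higher than epithelial cells, or at least 9.73-fold with the IELs of 1 list. Its UMIs were gathered in fewer cells than those of Il2rb: 12 of the 28 IELs with Il7r held 2 or more UMIs, with up to 6 in an iIEL of 1003 UMIs, against 3 of the 42 IELs with Il2rb.

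Between the IEL clusters, the level of Il7r was higher in iIELs, beyond the counting error only for the cells of 1 list. The shares of those cells with a UMI were 5.88% of nIELs (2.97% to 10.3%) and 9.71% of iIELs (5.76% to 15.1%). These intervals overlap. The interval of a level treats UMIs as independent, whereas 7 of the 17 iIELs with Il7r held 2 or more UMIs. The level of Il7r was 74.1 CPM (43.9 to 117) in nIELs and 113 CPM (77.0 to 159) in iIELs, a ratio of 1.52 in favour of iIELs (0.827 to 2.87). For the IELs of 1 list, nIELs stood at 75.0 CPM (44.4 to 119) and iIELs at 173 CPM (118 to 244), and iIELs were 2.30-fold higher (1.26 to 4.36). The order was that of set X1 (68.2 and 178 CPM), whereas in set X2, with 3 UMIs in nIELs and 1 in iIELs, nIELs were higher (149 and 90.7 CPM). In the B cell cluster, 5 of the 9 Il7r UMIs were in 1 cell. The 24 cells of that cluster with a Cd79a, Cd79b or Ms4a1 UMI and no Cd3 UMI held none (0 of 24, which allows up to 12.5%), whereas 7 of them held Il2rg (29.2%, 12.6% to 51.1%) and 1 held Il2rb.

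**Figure D2:**
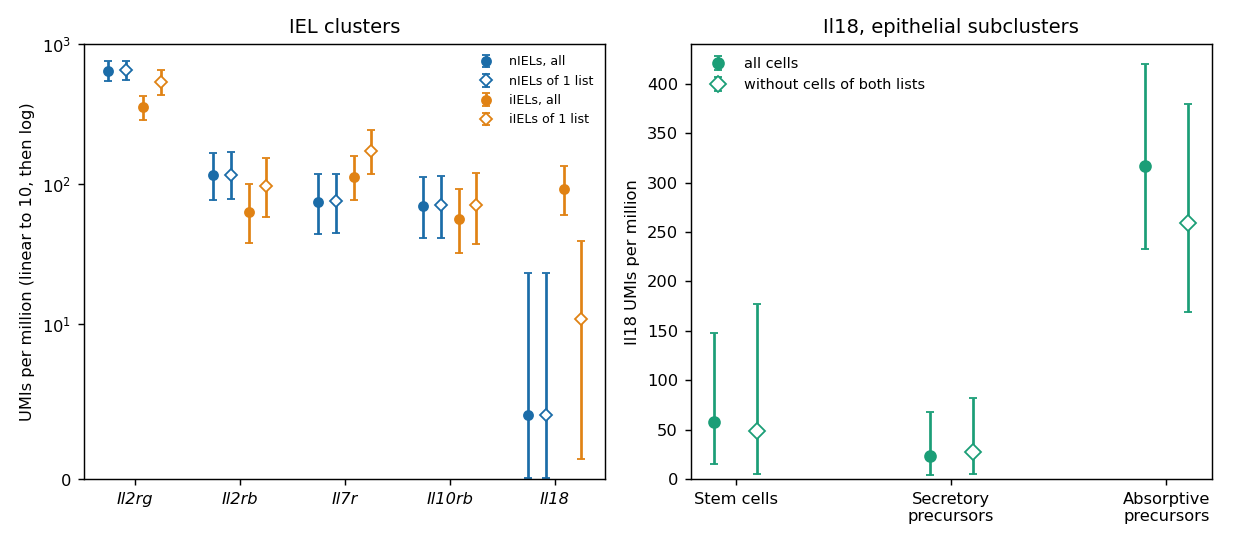
Left, level in CPM (y axis, linear to 10 and logarithmic above) of the 5 genes with the most UMIs in the 2 IEL clusters, as listed (filled circles) and for cells of 1 list (open diamonds); right, Il18 level in the 3 epithelial subclusters with and without the 14 cells that both lists claim. Bars are exact 95% Poisson intervals. In iIELs, Il2rg moves from 352 to 535 CPM and Il18 from 91.5 to 10.8 CPM when those cells are left out.

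UMIs of Gzma and Tyrobp were rarer in the IELs with Il7r than in the other IELs. Gzma, encoding the cytotoxic protease granzyme A, had a UMI in 2 of the 28 IELs with Il7r (7.14%, 0.877% to 23.5%) and in 116 of the 334 without it (34.7%, 29.6% to 40.1%). Within the iIELs of 1 list the shares were 2 of 17 (11.8%, 1.46% to 36.4%) and 93 of 158 (58.9%, 50.8% to 66.6%), and within the nIELs they were 0 of 11, which allows up to 27.3%, and 23 of 176 (13.1%, 8.47% to 19.0%). The separation held within iIELs, where the intervals do not overlap, and could not be seen in nIELs at this number of cells. Median depths with and without Il7r were 1132.5 and 1036 UMIs.

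Tyrobp, the signalling adaptor of several NK receptors, had a UMI in 1 of the 28 cells with Il7r (3.57%, 0.0904% to 18.3%) and in 84 of the 334 without (25.1%, 20.6% to 30.2%). In nIELs the shares were 0 of 11, which allows up to 27.3% (exact limit 28.5%), and 70 of 176 (39.8%, 32.5% to 47.4%). The intervals within nIELs do not overlap. In iIELs the shares were 1 of 17 (5.88%, 0.149% to 28.7%) and 14 of 158 (8.86%, 4.93% to 14.4%), and these intervals overlap. Tyrobp had a UMI in 37.4% of nIELs and 8.57% of iIELs of 1 list, and 17 of the 28 cells with Il7r were iIELs. The part of the cluster make-up in the pooled shares was not tested. Gzmb, encoding granzyme B, overlapped between cells with and without Il7r, with 7 of 28 (25.0%, 10.7% to 44.9%) and 116 of 334 (34.7%). The intervals of the T-cell chain Cd3g overlapped too (75.0% and 71.6%). These genes are 4 of 21 partner genes set beside Il7r, and were named after their values had been seen.

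**Figure D3:**
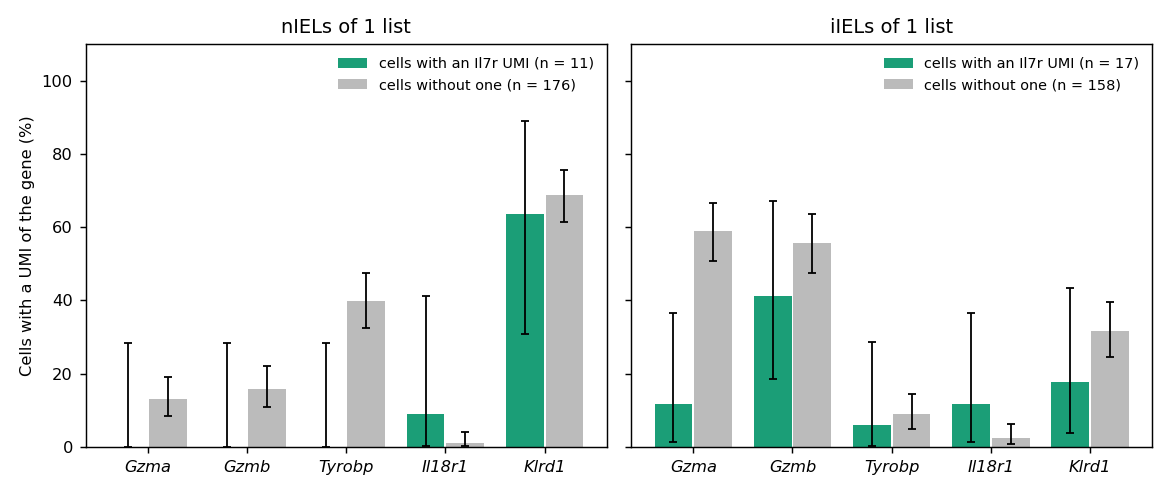
Percent of cells with a UMI (y axis) of 5 genes (x axis) among nIELs (left) and iIELs (right) of 1 list, for cells with an Il7r UMI (green, 11 and 17 cells) and without one (grey, 176 and 158 cells). Error bars are exact 95% binomial intervals. Gzma reached 11.8% of iIELs with Il7r and 58.9% of those without.

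Il15ra was near the limit of detection everywhere. It had 3 UMIs in nIELs, 4 in iIELs, 2 in epithelial cells and none in B cells, each in a cell of its own. The shares were 1.58%, 2.15%, 2.15% and 0 of 47, which allows up to 6.38%, and no order of the clusters could be read.

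Il18 was the only counted gene of the 8 with a higher level in the epithelium than in IELs. Epithelial Pigr+ cells held 31 UMIs in 12 of 93 cells (12.9%, 6.85% to 21.5%), a level of 125 CPM (84.8 to 177). The nIELs held 1 UMI in 190 cells (0.526%, 0.0133% to 2.90%) and the B cell cluster 1 UMI in 47. The iIELs held 26 UMIs in 5 cells, or 91.5 CPM (59.8 to 134), but 24 of those UMIs were in 3 cells that the other list places in the epithelium, with 15, 7 and 2 UMIs at depths of 23171, 20826 and 23205. The iIELs of 1 list held 2 UMIs in 175 cells (1.1%, 0.139% to 4.06%), or 10.8 CPM (1.31 to 39.0), a level whose interval overlaps that of nIELs.

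The epithelial level of Il18 was 2.44-fold that of IELs as listed (1.41 to 4.24) and 17.7-fold that of the IELs of 1 list (5.52 to 90.5). The same 14 cells set the ratio of iIELs over nIELs, which was 22.2 (3.65 to 911) as listed and rested on 2 UMIs against 1 without them (2.59, 0.135 to 153).

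Inside the epithelium, Il18 was highest in absorptive precursors, the forerunners of colonocytes. Absorptive precursors held 48 UMIs in 11 of 42 cells (26.2%, 13.9% to 42.0%), stem cells 4 UMIs in 3 of 32 cells (9.38%, 1.98% to 25.0%), and secretory precursors 3 UMIs, all in 1 of 32 cells (3.12%, 0.0791% to 16.2%). The levels were 316 CPM (233 to 419), 57.9 CPM (15.8 to 148) and 23.3 CPM (4.81 to 68.1). Absorptive precursors were 13.6-fold above secretory precursors (4.37 to 68.1) and 5.46-fold above stem cells (2.0 to 20.8). Stem cells and secretory precursors could not be ordered. Unlike the levels, the shares of cells have intervals that overlap between absorptive precursors and either other subcluster.

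Without the cells of both lists, absorptive precursors held 26 UMIs in 9 of 37 cells, or 259 CPM (169 to 379), against 49.0 CPM (5.93 to 177) in 26 stem cells and 28.2 CPM (5.81 to 82.3) in 29 secretory precursors. The intervals of these levels did not overlap between absorptive and secretory precursors, while those of absorptive precursors and stem cells did. The shares of cells were 24.3% (11.8% to 41.2%) in absorptive precursors, 7.69% (0.946% to 25.1%) in stem cells and 3.45% (0.0873% to 17.8%) in secretory precursors. The intervals of the shares overlap. The 9 absorptive precursors with a UMI held 7, 5, 4, 3, 2, 2, 1, 1 and 1 UMIs at depths between 726 and 9330 UMIs.

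Depth and barcode set moved with the Il18 value. Absorptive precursors with a UMI had a median depth of 5683 UMIs, against 1939.5 for all 42. After each cell had been thinned to 700 UMIs, which left out 4, 6 and 3 cells, the share was 12.2% in absorptive precursors, 2.22% in stem cells and 0.539% in secretory precursors, in the same order. In set X1, absorptive precursors stood at 364 CPM (267 to 486), and the 8 cells of set X2 stood at 78.5 CPM (9.51 to 284). Stem cells stood at 38.9 CPM in X1 (1 UMI in 17 cells) and 69.2 CPM in X2 (3 UMIs in 15 cells). Secretory precursors stood at 28.2 CPM in X1 and had no UMI in the 4 cells of X2. Absorptive precursors held 2 UMIs in X2, so their order over stem cells rested on X1. The part of the barcode set in these differences was not tested.

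**Figure D4:**
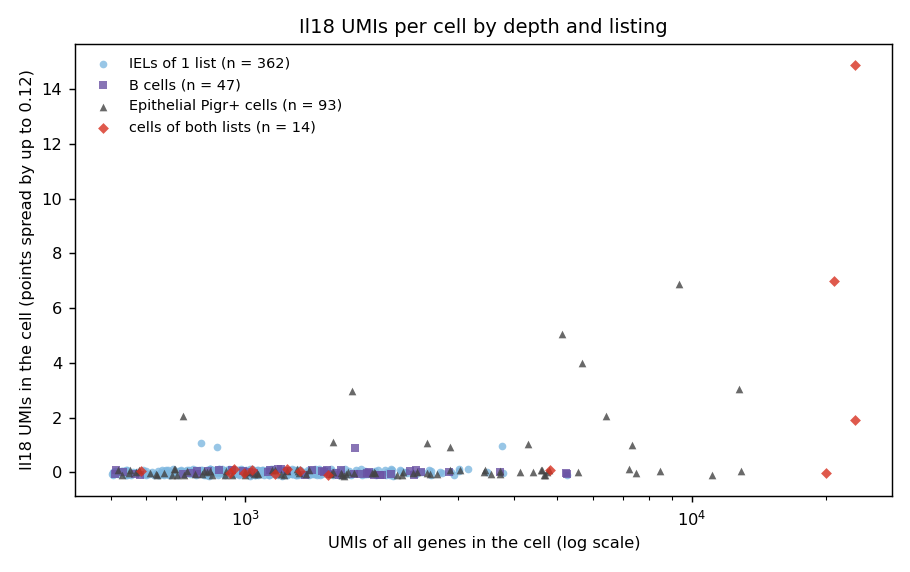
Il18 UMIs per cell (y axis) against the UMIs of all genes in the cell (x axis, log scale) for the 516 assigned cells, by cluster; red diamonds are the 14 cells that both lists claim. Most Il18 UMIs lie in epithelial cells, and the 2 cells with 15 and 7 UMIs at the far right are listed both as iIELs and as absorptive precursors.

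Il18r1, the ligand-binding chain of the IL-18 receptor, had 9 UMIs in 6 iIELs (3.23%, 1.19% to 6.89%), 3 UMIs in 3 nIELs (1.58%, 0.327% to 4.54%), 1 in epithelial cells (1.08%) and 1 in B cells. IELs as listed had 22.8 CPM (11.8 to 39.8) and epithelial cells 4.03 CPM (0.102 to 22.4), a ratio of 5.65 (0.837 to 242), and the total of 13 UMIs was under the 20 that were required for a gene to be counted. Of the 28 IELs with Il7r, 3 held Il18r1 (10.7%, 2.27% to 28.2%), against 6 of the 334 without (1.80%, 0.662% to 3.87%). Il18rap, the second chain, had 6 UMIs in 6 IELs and none in the epithelium, and 3 of those cells were among the 28 with Il7r (10.7%), against 3 of 334 (0.898%, 0.186% to 2.60%). Both pairs of intervals overlap.

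Il10rb, the shared chain for IL-10 and IL-22, was the only 1 of the 8 genes with UMIs in all 7 clusters and subclusters at more than 3 UMIs each. It had 17 UMIs in 17 nIELs (8.95%, 5.30% to 13.9%), 16 UMIs in 14 iIELs (7.53%, 4.18% to 12.3%), 7 UMIs in 6 B cells (12.8%, 4.83% to 25.7%) and 12 UMIs in 11 epithelial cells (11.8%, 6.05% to 20.2%). As levels, these were 70.0, 56.3, 91.2 and 48.3 CPM, with intervals that all overlap. Stem cells, secretory precursors and absorptive precursors held 4, 6 and 5 UMIs, or 57.9, 46.6 and 32.9 CPM. IELs over epithelial cells gave 1.30 (0.652 to 2.76), so a difference of up to 2.76-fold in favour of IELs, or 1.53-fold in favour of the epithelium, lies within the counting error.

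Il17ra had 7 UMIs in 7 nIELs (3.68%), 4 UMIs in 3 iIELs (1.61%), 5 UMIs in 4 B cells (8.51%, 2.37% to 20.4%) and 2 UMIs in epithelial cells (2.15%), both in stem cells. Its level in IELs was 20.9 CPM (10.4 to 37.4) and in epithelial cells 8.05 CPM (0.975 to 29.1), a ratio of 2.59 (0.566 to 24.1). The order of the clusters could not be read.

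Counted together, 5 of the 8 genes had at least 20 UMIs in IELs and epithelial cells. Of these, 3 were at least 2-fold higher in IELs (Il2rg, Il2rb and Il7r), where 23.0% of all 5779 genes with as many UMIs were, and 1 was at least 2-fold lower (Il18), where 19.2% were. The median log2 difference of the 5 was 2.85, against 0.09 over all those genes. With the IELs of 1 list the counts were again 3 and 1 of 5, against 26.5% and 22.4% of 5182 genes. Between nIELs and iIELs, 1 of 5 counted genes was past 2-fold as listed (Il18), against 20.2% of 4189 genes. With cells of 1 list it was 1 of 4 (Il7r), against 11.9% of 3321 genes, and Il18 was then under the minimum of 20 UMIs.

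The wider interleukin pathway held 69 further genes, of which 55 had a row and 23 had at least 20 UMIs in these cells. Of the 23, 11 were at least 2-fold higher in IELs, where 23.0% of all genes were, and 5 were at least 2-fold lower, a share close to the 19.2% of all genes. The median log2 difference was 0.63, against 0.09 over all genes. With the IELs of 1 list, 11 of 22 were higher (26.5% of all genes) and 4 lower (22.4% of all genes), with a median of 1.05 against 0.15. The folds below are for the IELs of 1 list.

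Among receptors, Il21r, the partner of the common gamma chain for IL-21, had 46 UMIs in IELs and none in epithelial cells (at least 8.95-fold higher), and Il27ra had 24 and none (at least 4.67-fold). The interferon gamma receptor was divided by chain. Ifngr1, its ligand-binding chain, was 4.12-fold higher in IELs (2.47 to 7.31, 120 against 17 UMIs), and Ifngr2, its signalling chain, had 1 UMI in 362 IELs and 29 UMIs in 21 of 93 epithelial cells, 49.7-fold higher in the epithelium (8.23 to 2028). The type I interferon receptor chains Ifnar1 and Ifnar2 were 2.45-fold (0.90 to 8.33) and 4.38-fold (1.54 to 17.1) higher in IELs.

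Il17rc and Il17re, which pair with Il17ra, had more UMIs in epithelial cells than in IELs. Il17rc had 16 UMIs in 13 epithelial cells and Il17re 12 UMIs in 12, and neither had a UMI in the IELs of 1 list, at least 9.13-fold and 6.85-fold higher in the epithelium. Il17re was past 2-fold in the clusters as listed, where the 14 cells brought the IELs to 9 UMIs, and both had under 20 UMIs once those were left out. Il17rc and Il17re are named here although they were not counted, after their values had been seen.

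Among ligands, Il16 had 32 UMIs in IELs and none in the epithelium (at least 6.23-fold), and Il2, with 17 UMIs in 17 IELs and 1 UMI in the epithelium, had too few UMIs to be counted. In signalling, Jak1, a kinase of the common gamma chain and interferon receptors, was 3.94-fold higher in IELs (2.32 to 7.14) and Jak2 3.70-fold (1.09 to 19.5). Stat4, which acts downstream of IL-12, had 36 UMIs against none (at least 7.01-fold). Cish, a feedback inhibitor induced by STAT5, was 28.6-fold higher in IELs (4.90 to 1153, 49 UMIs against 1). Socs2, another feedback inhibitor, was 4.65-fold higher in the epithelium (1.87 to 13.1). Stat3, Stat6, Irak1 and Irak4 stayed within 2-fold.

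The genes that process IL-18 were measured in both compartments. Pycard, the inflammasome adaptor ASC, was 3.77-fold higher in the epithelium (2.75 to 5.22, 130 UMIs in 43 epithelial cells and 59 UMIs in 45 IELs), and Nlrp6, an inflammasome sensor of the gut epithelium, had 24 UMIs in 20 epithelial cells and 1 UMI in the IELs (41.1-fold, 6.70 to 1690). Casp1, which encodes caspase-1, was 1.54-fold higher in the epithelium (1.00 to 2.36) and Gsdmd, the pore-forming gasdermin D, 1.51-fold (0.703 to 3.22), both under 2-fold. Between nIELs and iIELs of 1 list, Casp1 was 2.23-fold higher in iIELs (1.21 to 4.24), Cish 2.05-fold (1.11 to 3.85) and Stat6 2.11-fold (0.809 to 5.86), whereas Irak1 was 2.09-fold higher in nIELs (0.843 to 5.89). In all, 5 of 15 counted genes of the list were past 2-fold, against 11.9% of all genes. With the clusters as listed, 2 of 17 were (Casp1 and Pycard), against 20.2% of all genes.

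**Figure D5:**
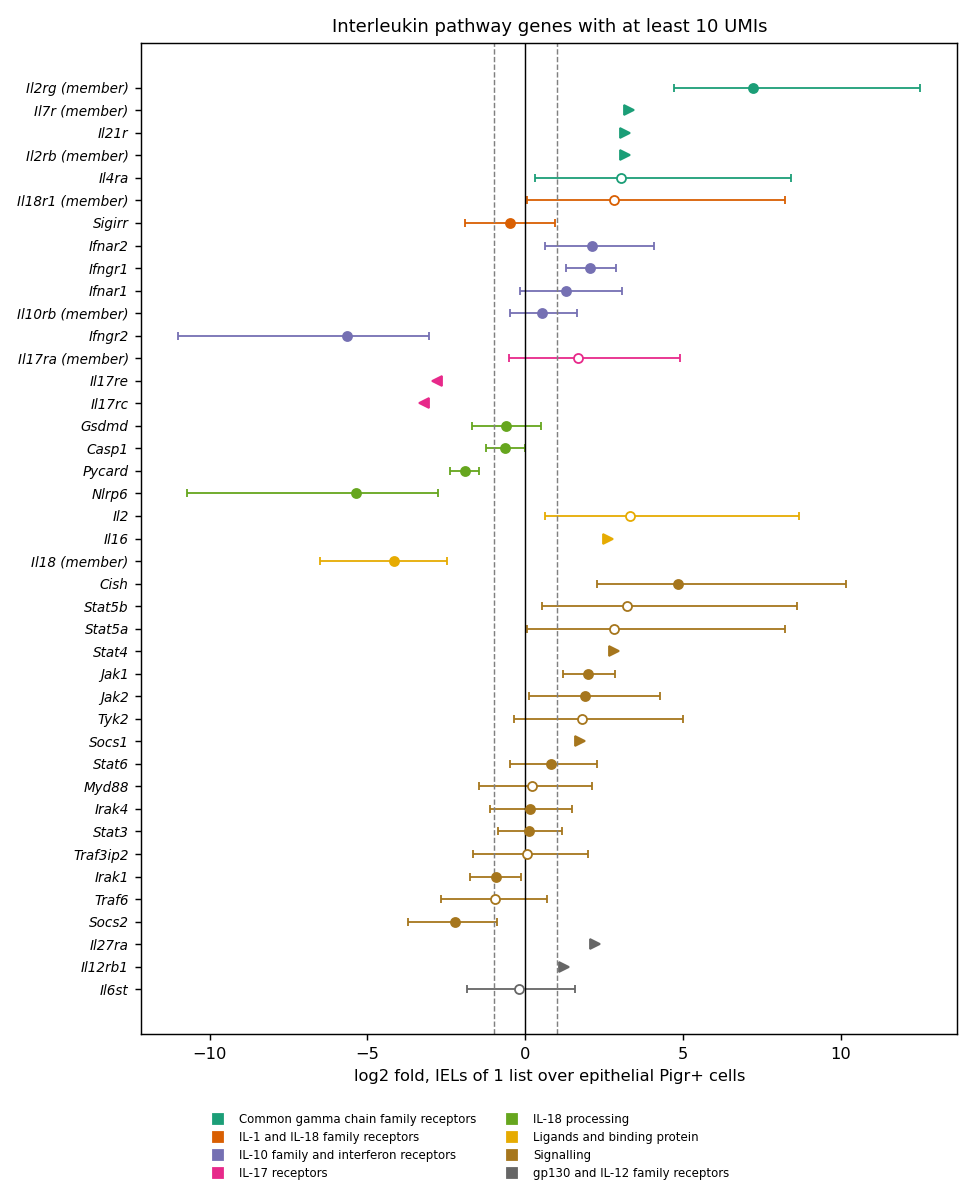
Log2 fold of IELs of 1 list over epithelial Pigr+ cells (x axis) for the 8 genes (named as members) and the listed pathway genes with at least 10 UMIs, coloured by role. Bars are exact 95% intervals, filled circles have at least 20 UMIs, open circles fewer, and triangles are bounds where 1 side held no UMI. Dashed lines mark 2-fold, and the receptors of the common gamma chain lie to the right while Il18, Nlrp6 and Ifngr2 lie to the left.

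Genes with the most similar pattern were sought for the 5 genes with at least 30 UMIs, by Pearson's r of log2(CPM + 10) over 6 separate populations (both IEL clusters of 1 list, B cells and the 3 epithelial subclusters) among 4527 genes. For Il2rg these were H2-Q6, Gimap7 and Hspa1b (r of 1.00 for each to 2 decimals), and for Il2rb Selplg, Gpr65 and Arhgap4. Il7r was nearest to Gng2, Gm4955 and Fam105a, which also had more UMIs in iIELs than in nIELs. Il18 was nearest to Bpnt1, Idh3a and Gsdmc3 (r from 0.985 to 0.987), and Gsdmc3, a gasdermin C gene, had 54 UMIs in absorptive precursors, 4 in stem cells, 1 in secretory precursors and none in the lymphocyte clusters. Il10rb was nearest to Fam195b, Nap1l1 and Lbr (r from 0.978 to 0.986). With 6 points, an r above 0.9 was common and was found for 548 genes with Il2rg, 525 with Il2rb, 471 with Il7r, 98 with Il18 and 82 with Il10rb.

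In the mouse genome (GRCm38, GENCODE) the genes lie apart. Il2rg is at X:101264378-101268255 and Il2rb at 15:78479256-78495271, both on the minus strand, as is Il7r at 15:9505788-9530176. Il15ra is at 2:11705290-11734317, Il18 at 9:50554827-50581840, Il18r1 at 1:40465552-40500854, Il10rb at 16:91406164-91425834 and Il17ra at 6:120463247-120487559, all on the plus strand. Exons of Il2rg overlap those of Gm20489 and exons of Il10rb those of Gm21970 on the same strand, neither of which has a row of its own, so their reads could not be told apart from those of the named genes. Bco2 and Tex12 overlap Il18 on the opposite strand without a shared exon.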

How the data were processed

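Crypt cells were sorted, combined with human cells and processed by Drop-seq, and both pools are in 1 matrix. The values used are UMI counts per gene symbol and barcode as deposited by the authors, without normalization, made with the Drop-seq pipeline. Per the submitters' notes, the tools included STAR 2.5.0 and Picard 1.137, and mm10 and hg19 were the genome builds. The counting settings and the treatment of strand and doublets are not given in the sources used here.

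Cells were assigned by barcode to the clusters and subclusters of the study's supplementary lists, and no cell was assigned otherwise. The 516 assigned cells held 851904 UMIs (504 to 23205 per cell). Summed UMIs per 1000000 (CPM), shares of cells, and folds with exact 95% binomial intervals were computed with Python 3.11.15, numpy 2.4.6, scipy 1.17.1, pandas 2.3.3 and matplotlib 3.10.9. A gene was counted with at least 20 UMIs in the cells compared and named where past 2-fold. A level of 0 was set to 3 counts over the group for bounds. Intervals treat UMIs as independent. No doublets were removed, and cells with at least 2 UMIs of epithelial and of lymphocyte markers were left out as an alternative. No test was possible with 1 sample, and p-values were not computed. Thinned shares were the expected shares at 700 UMIs per cell. Levels were compared within a gene only, since UMI capture differs between genes.

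The 8 genes, the pathway list and the marker lists were chosen with earlier results of these data known. A gene of the pathway list that is in its counts is not reported here by name or in the plot of folds. In 601 barcodes the study assigned no cluster. They held a median of 212 UMIs, and 36.8% of their UMIs were mitochondrial, against 3.83% in assigned cells. Fold computation was tested on simulated data. Human cells and staining data were not used here.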

Additional observations from a re-analysis of the deposited data

Results flagged for a closer look

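The 601 barcodes outside the clusters were used in no comparison above, and 4 of the 8 genes had more UMIs there than the 3 that a count of 0 allows. Il2rg had 32 UMIs in 25 barcodes (4.16%, exact interval 2.71% to 6.08%), or 186 CPM (127 to 263). Il7r had 8 UMIs in 4 barcodes, Il10rb 5 UMIs in 5 barcodes, and Il2rb 4 UMIs in 3 barcodes. Il15ra and Il18r1 had 3 UMIs each, Il18 had 1 and Il17ra had none. Whether these barcodes are shallow cells or free RNA was not tested.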

How the results depend on the processing

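All values come from 1 sample without replicates, so that intervals cover counting error only and no replicate could be left out. No paired analysis was possible because both labelled samples belong to 1 group and their cells could not be told apart. In all, 431 values were recomputed, of which 364 stayed within the 95% interval of the reported value, or within 1.5 times a count, and no fold of a gene counted past 2-fold reversed. Il7r, which was not past 2-fold as listed, was 5.99-fold higher in nIELs than in iIELs in set X2, on 3 UMIs against 1.

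Without the 14 cells of both lists, Il2rg in IELs was 599.7 CPM and Il18 in IELs 7.06 CPM. With CPM computed per cell and then averaged, they were 581 and 9.98 CPM, and 2 genes (Il7r and Il18) instead of 1 differed 2-fold between nIELs and iIELs. Il2rg in IELs was 620 CPM with totals that leave out mitochondrial and ribosomal protein genes. Without the cell with the most UMIs of the gene, Il18 in IELs was 23.8 CPM and 0 genes differed between nIELs and iIELs.

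In set X2 alone, with 33 IELs and 24 epithelial cells, 1 gene (Il2rg) was higher and 0 lower in IELs, and 0 of the pathway list were counted as higher and 0 as lower. There, 51.5% of IELs held Il2rg, the levels in IELs were 49.9 CPM for Il2rb, 66.5 for Il7r, 33.3 for Il18, 33.3 for Il10rb and 0 for Il15ra, Il18r1 and Il17ra (shares of 0% for those 3), and in epithelial cells 48.3 CPM for Il18 and 0 for Il2rg, Il15ra and Il18r1 (shares of 0%).

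At least 10 UMIs instead of 20 gave 5 higher genes (with Il18r1 and Il17ra added), 3 between nIELs and iIELs (Il18, Il18r1 and Il17ra) and 17 higher pathway genes. At 3-fold, 0 of the 8 genes and 3 of the pathway list were lower in IELs. At 1.5-fold, 4 of the 8 differed between nIELs and iIELs.

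Thinned to 700 UMIs, shares in IELs were 30.3% for Il2rg, 7.04% for Il2rb, 4.90% for Il10rb and 1.04% for Il17ra, and in epithelial cells 5.90% for Il18 and 5.02% for Il10rb. At least 2 UMIs were found in 14.4% of IELs for Il2rg, 0.798% for Il2rb, 3.19% for Il7r, 0.532% for Il18r1, 0.266% for Il10rb, 0.266% for Il17ra and 0% for Il15ra, and in 1.08% of epithelial cells for Il10rb and 0% for Il2rg, Il15ra, Il18r1 and Il17ra. Leaving out the 1 cell with markers of both kinds, joining related barcodes (493 cells) and set X1 alone moved none of these values past those limits. At this depth Il15ra, Il18r1 and Il17ra had 18 or fewer UMIs each in the assigned cells.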
